A study of Mus musculus with 2 samples.

Results

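*Eomes*, *Hopx*, *Lhx2*, *Sox9* and *Creb5* are 5 of the 500 genes of a MERFISH panel, and each is transcribed in neural progenitors of the embryonic forebrain. They were taken by name from the count tables of both sections of the study, and all 5 were present in both. MERFISH reads fluorescent barcodes on single RNA molecules over repeated imaging rounds, so that each molecule has a gene, a position and, where segmentation places it, a cell. Measured was 1 coronal section per genotype, 10 µm thick, cut from the head of an E16.5 embryo. The control carried *Sst-Cre* and a tdTomato reporter in the *ROSA26* locus (*Sst-Cre/tdTomato*). The *Dnmt1* KO carried both alleles as well, together with loxP-flanked *Dnmt1* (*Sst-Cre/tdTomato/Dnmt1 loxP2*). Cre was driven by *Sst*, the gene of the neuropeptide somatostatin, so the deletion was directed at SST+ cells and not at the progenitors described here. The panel had no probes for *Dnmt1*, so the deletion itself is not seen in these counts.

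Progenitors of the forebrain line the ventricles in the ventricular zone (VZ). In the cortex, radial glia divide at the ventricle and give rise to intermediate progenitor cells (IPCs), which divide further out and produce projection neurons. In the subpallium, the ganglionic eminences produce GABAergic neurons and oligodendrocyte precursors. *Eomes* (*Tbr2*) is a T-box transcription factor and the standard marker of cortical IPCs. *Hopx* encodes a small homeodomain protein that does not bind DNA itself and marks a subset of radial glia. *Lhx2* is a LIM-homeodomain factor that specifies cortical identity. *Sox9* is an HMG-box factor that maintains neural stem cells and, outside the brain, directs cartilage formation. *Creb5* is a bZIP transcription factor of the CREB/ATF family. The probes of each gene target 1 annotated transcript, located here by its identifier in the GENCODE annotation of the GRCm39 build. *Eomes* lies on the plus strand at chr9:118307280-118315200, with 6 exons and a spliced length of 3692 nt. *Hopx* is on the minus strand at chr5:77234831-77243145 (3 exons, 1138 nt), *Lhx2* on the plus strand at chr2:38240771-38259759 (5 exons, 2854 nt), *Sox9* on the plus strand at chr11:112673009-112678586 (3 exons, 4176 nt) and *Creb5* on the plus strand at chr6:53550285-53677361 (7 exons, 7491 nt). *Top2a*, the topoisomerase of cycling cells, was used as the marker of proliferation.

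With 1 section per group there was no replicate, no test was run, and run and genotype cannot be told apart. Sums carry exact Poisson and shares exact binomial (Clopper-Pearson) 95% intervals, which cover counting error only. Depth differed between the sections. The control had a median of 20 panel transcripts per segmented cell and the KO 101, and a minimum of 20 transcripts kept 50.9% of 108533 control cells and 92.04% of 110004 KO cells. Levels are given as counts per 1000000 panel transcripts (CPM) of the kept cells. In the whole section *Sox9* was counted at 10078 CPM in the control and 7128 CPM in the KO, at rank 17 and 28 of the 500 genes. The other members were scarcer. *Creb5* had 721 and 907 CPM, *Hopx* 494 and 808 CPM, *Eomes* 409 and 974 CPM, and *Lhx2* 337 and 708 CPM. No blank barcode, a code that belongs to no gene and measures false decoding, reached any member in the whole section.

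Both sections were divided by script into 5 zones (see the maps of the zones). The VZ was outlined where the smoothed share of *Aldoc*, *Aldh1l1*, *Mfge8*, *Ednrb* and *Fgfr3*, genes of radial glia and astroglia, was above 3% of panel transcripts. Cortex and subpallium were separated by 5 pallial and 12 subpallial genes, and the tissue around the brain was set apart by 7 mesenchymal genes. No member and not *Top2a* was used for this. Of the genes that outlined the VZ, *Aldoc* was the gene most like *Eomes*, *Hopx* and *Sox9* in pattern. *Mfge8* was among the 3 genes most like *Creb5*. High shares and levels of these members in the VZ are therefore partly built in. Control and KO cortical VZ covered 0.651 and 0.494 mm² and had 2278 and 4515 kept cells. The subpallial VZ covered 0.778 and 0.608 mm², with 3704 and 5990 kept cells. In the cortical VZ the minimum kept 36.0% of control cells and 96.4% of KO cells, so the control values rest on the deeper cells of that zone.

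**Figure D1:**
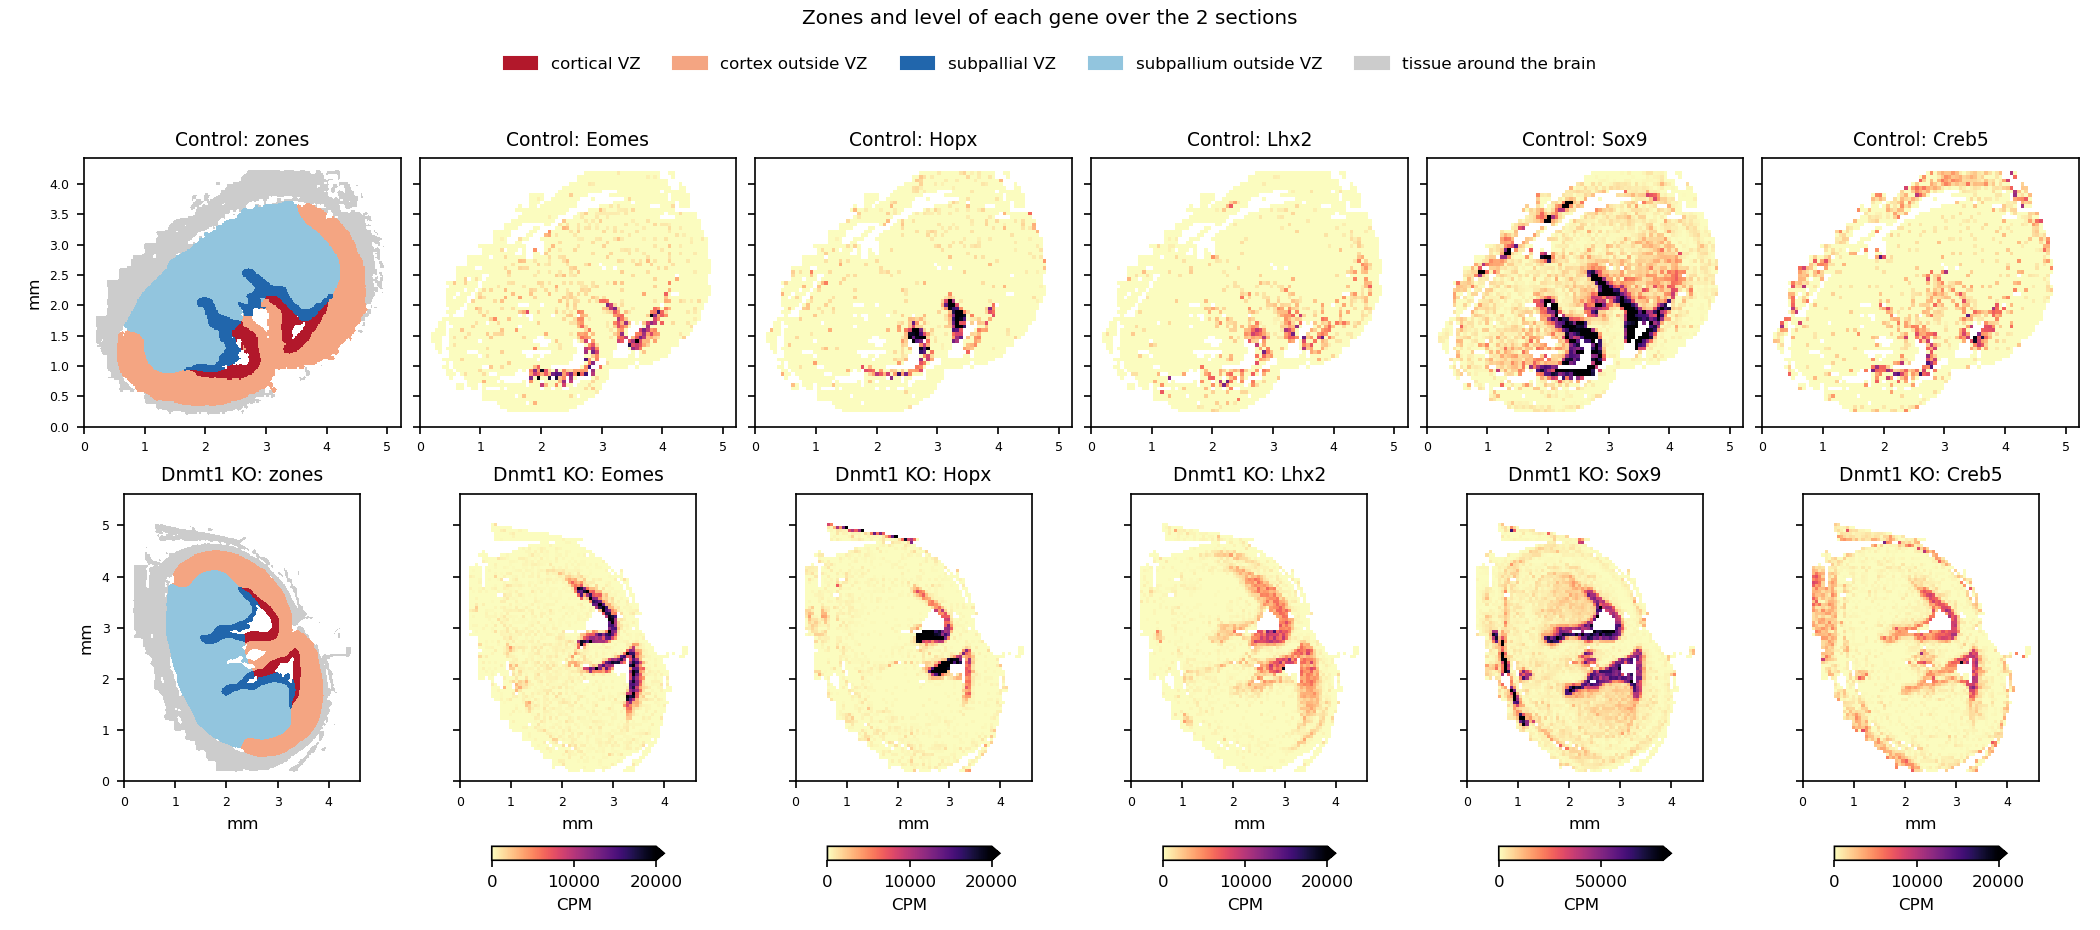
Maps of both sections in mm, control above and *Dnmt1* KO below. The first column shows the 5 zones, and the others show the level of each gene in CPM in small square bins that hold at least 5 kept cells, with a wider colour scale for *Sox9*. *Sox9* outlined the cortical and the subpallial VZ. *Eomes* and *Hopx* outlined mainly the cortical VZ, *Hopx* less so in its lateral part. *Lhx2* extended into the cortex, and *Creb5* and *Sox9* were also found around the brain.

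The members differed in how much of their signal lay in the VZ. Both VZ zones together held 8.76% of the panel transcripts assigned to the zones in the control and 8.51% in the KO. *Hopx* was the most concentrated, with 70.2% of its transcripts there in the control and 71.9% in the KO. *Sox9* followed in the control with 55.0% (52.7% in the KO), and *Eomes* in the KO with 58.9% (42.6% in the control). *Lhx2* had 36.4% and 39.0% there and *Creb5* 32.6% and 44.5%. Most *Hopx* transcripts belonged to the cortical VZ alone, 63.4% (60.6 to 66.2) and 66.7% (65.8 to 67.6). For *Sox9* the subpallial VZ held the larger part, 31.9% and 29.6%, against 23.1% in the cortical VZ of either section.

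Within the cortical VZ *Sox9* stood at 73792 CPM (71837 to 75787) in the control and 45006 CPM (44414 to 45604) in the KO. *Hopx* was next, at 9935 CPM (9225 to 10684) and 14715 CPM (14377 to 15059). For *Eomes* the control level was 4701 CPM (4217 to 5225), from 344 transcripts, and the KO level 13213 CPM (12894 to 13539), from 6476. *Creb5* had 4031 CPM (3584 to 4518) and 6346 CPM (6124 to 6573), and *Lhx2* 2733 CPM (2367 to 3139) and 5364 CPM (5161 to 5573). These orders are of molecules decoded by different probes and are not a ranking of gene activity.

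**Figure D2:**
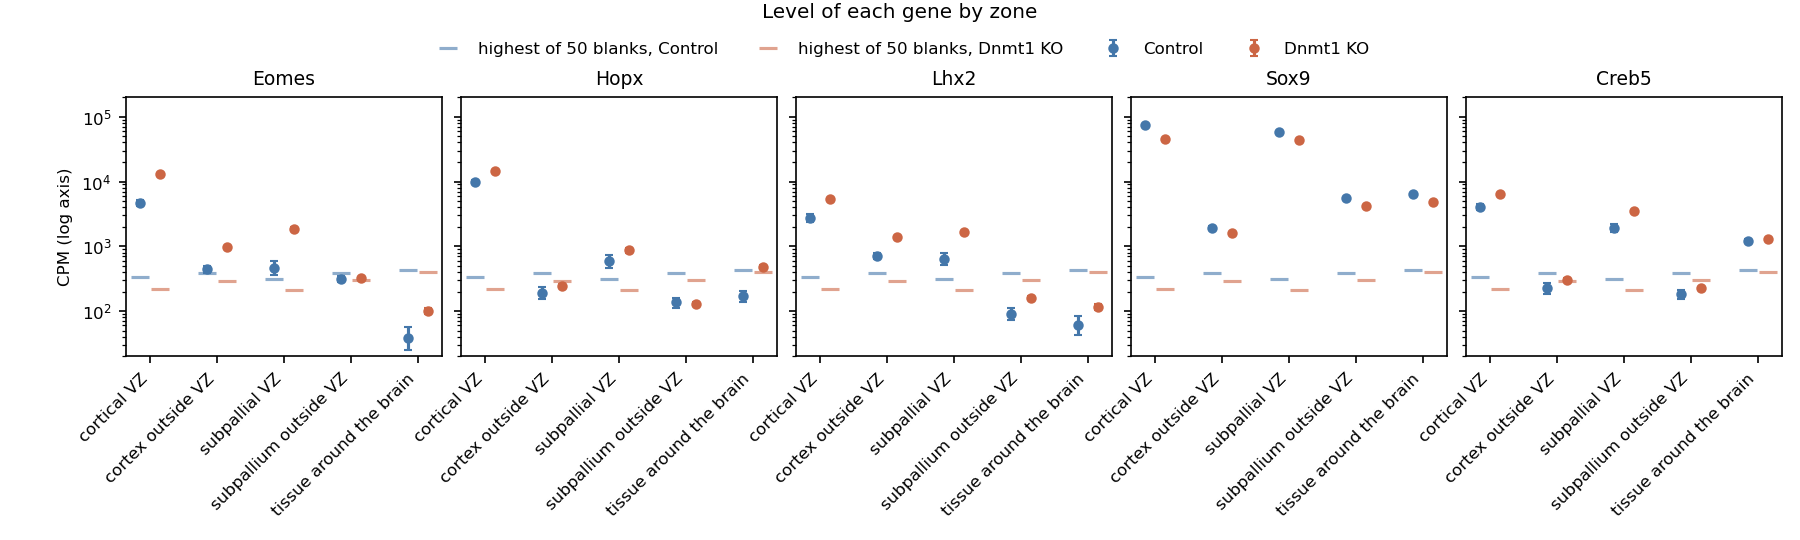
Level of each gene in the 5 zones, in CPM on a log axis, with exact Poisson 95% intervals, for the control and the *Dnmt1* KO section. The highest level of every member was in the cortical VZ in both sections, with *Sox9* nearly as high in the subpallial VZ. The pale bars give the highest of the 50 blank barcodes in each zone and section.

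The cortical VZ was then set against the subpallial VZ within each section, where both zones share a slide and a run. *Hopx* differed most. Its subpallial level was 592 CPM (467 to 740.1) in the control and 873 CPM (802 to 948) in the KO, a log2 ratio of cortical over subpallial VZ of 4.07 (3.64 to 4.51) and 4.08 (3.92 to 4.23), or 16.8-fold and 16.9-fold. *Eomes* was at 469 CPM (359 to 603) in the subpallial VZ of the control and at 1847 CPM (1744 to 1955) in that of the KO, a log2 ratio of 3.32 (2.81 to 3.86) and 2.84 (2.72 to 2.96). *Lhx2* had 646 and 1636 CPM there, with log2 ratios of 2.08 (1.57 to 2.61) and 1.71 (1.57 to 1.86). With a minimum of 50 transcripts per cell the control values of *Lhx2* and *Hopx* were 1.19 and 3.31. *Creb5* had 1923 and 3531 CPM, with 1.07 (0.72 to 1.42) and 0.85 (0.74 to 0.96). *Sox9* was nearly level between the zones, at 57402 and 43553 CPM in the subpallial VZ, with 0.36 (0.29 to 0.43) and 0.05 (0.01 to 0.08). *Top2a* had 0.48 and 0.11.

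Of the 5 members, 4 had a log2 ratio above 1 in the control, where 28.1% of the 128 panel genes with at least 50 transcripts in both zones of both sections did. *Creb5* was just above that limit, and was below it with a stricter outline of the zones (0.73) and in 1 hemisphere (0.92). In the KO 3 members were above 1, against 23.4% of the 128 genes. Among these genes *Hopx* ranked 1st in the control and 2nd in the KO, *Eomes* 3rd and 5th, *Lhx2* 8th and 12th, *Creb5* 35th and 33rd, and *Sox9* 49th and 62nd.

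A list of other genes of progenitors and their early progeny gave the frame for these ratios. Of 15 such genes, 4 were above 1, 6 below −1 and 5 in between, in either section, with a median of −0.18 in the control and −0.35 in the KO. Panel medians were 0.09 and −0.01. *Sstr2* and *Unc5d* of this list had most of their transcripts in the cortical wall outside the VZ (71.1% and 77.5%, 80.9% and 86.6%). On the cortical side stood *Sstr2*, a somatostatin receptor (3.57 and 2.58), *Unc5d*, a netrin receptor of newborn cortical neurons (2.23 and 1.53), *Aldoc*, a glycolytic enzyme of radial glia (1.70 and 1.08), and *Bcan*, a matrix proteoglycan (1.13 and 1.66). On the subpallial side stood *Dlx1*, a factor of GABAergic lineages (−4.84 and −4.59), *Olig2* and *Olig1* of the oligodendrocyte lineage (−3.23 and −3.41, −1.97 and −1.53), *Egfr*, a growth factor receptor (−2.73 and −2.27), *Aldh1l1*, an astroglial enzyme (−2.66 and −2.86), and *Ednrb*, an endothelin receptor of glia (−1.22 and −1.36). Control *Dlx1* in the cortical VZ (11 transcripts) had 7 blank barcodes at or above it and control *Unc5d* in the subpallial VZ (30 transcripts) 3, so their control ratios are limits and not exact values. *Aldoc*, *Aldh1l1*, *Ednrb* and *Dlx1* had themselves helped to draw the zones.

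The *Eomes* and *Hopx* that was counted in the subpallial VZ lay mostly at its border with the cortex. The strip within 100 µm of the cortex held 39.3% (control) and 28.0% (KO) of its kept cells. It held 80.3% and 91.99% of its *Eomes* transcripts and 84.4% and 85.0% of its *Hopx* transcripts. For *Lhx2* the strip held 39.3% and 33.1%, for *Sox9* 45.3% and 31.6%, and for *Creb5* 52.0% and 42.7%, close to or somewhat above its share of the cells. Beyond the strip *Eomes* was down to 158 CPM (12 transcripts) in the control and 215 CPM (96) in the KO, and *Hopx* to 158 CPM (12) and 190.04 CPM (85). There 5 blank barcodes in the control and 1 in the KO were at or above *Eomes*, and 5 and 2 at or above *Hopx*. *Lhx2* was still at 670 and 1587 CPM, *Creb5* at 1576 and 2936 CPM and *Sox9* at 53599 and 43181 CPM. The strip was examined after the maps had been seen.

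Position relative to the outer edge of the cortical VZ separated the members further. *Sox9* and *Hopx* were high inside and dropped across the edge. The edge was drawn from genes of radial glia and astroglia, among them *Aldoc*, the gene most like both in pattern. A drop of such genes at this edge is therefore partly built in. Control *Sox9* was at 82191 CPM more than 50 µm inside the edge, at 33862 CPM in the last 25 µm inside and at 9371 CPM in the first 25 µm outside, and KO *Sox9* at 52668, 20219 and 6339 CPM. At the same positions *Hopx* was at 10115, 6595 and 2312 CPM in the control and at 16036, 8462 and 2232 CPM in the KO. *Creb5* followed the same course, from 4126 to 2790.1 and 730.2 CPM (the last from 6 transcripts) and from 6846 to 3611 and 1492 CPM.

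*Eomes* did not follow this course. Its level was 4145 CPM deep in the control VZ, 6088 CPM in the last 25 µm inside the edge and 6937 CPM in the first 25 µm outside, on 218, 48 and 57 transcripts. In the KO it was 12176, 17122 and 12181 CPM at these positions, with its highest level in the 25 µm just inside the edge. *Lhx2* was flatter. In the control it was 2377 CPM deep inside and 4381 CPM just outside, and in the KO 5308 and 6110 CPM, and it decreased slowly through the wall. Of the transcripts in the cortical wall, 59.9% of *Lhx2* in the control and 61.0% in the KO lay outside the VZ. These shares were 37.2% and 31.0% for *Eomes*, 22.0% and 20.7% for *Creb5*, 9.13% and 7.99% for *Hopx*, and 9.86% and 14.5% for *Sox9*. All panel transcripts had 81.96% and 81.99%. In median position *Eomes* transcripts lay 40 µm inside the edge in both sections, and *Lhx2* transcripts 40 µm outside it.

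**Figure D3:**
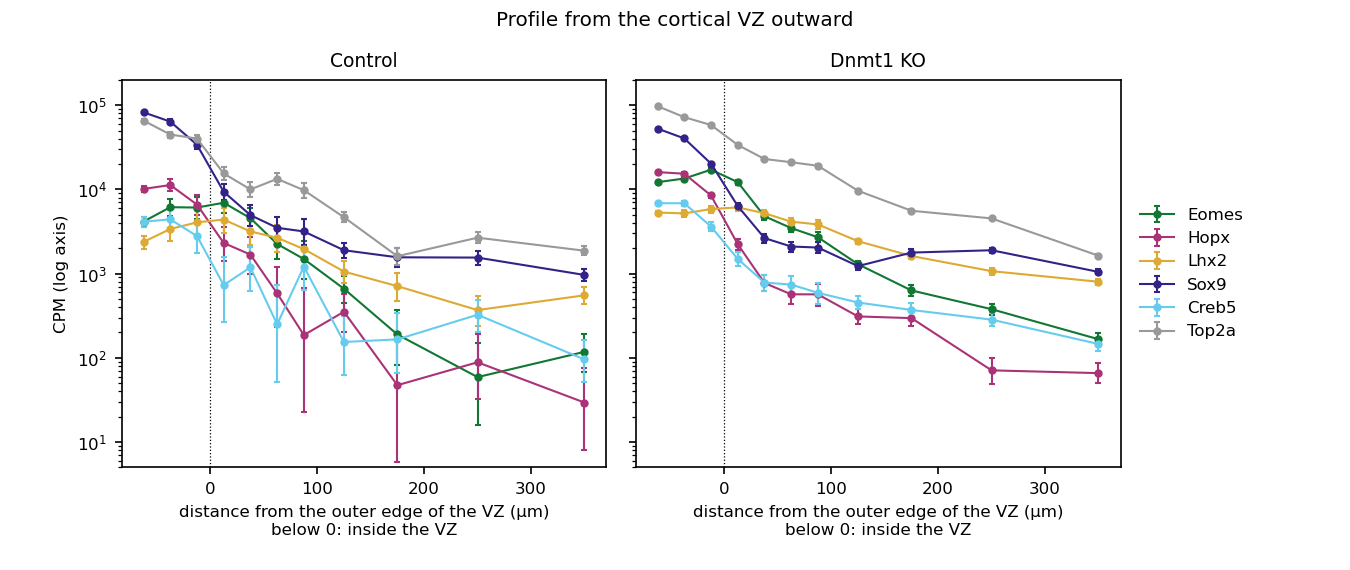
Level of each gene and of *Top2a* in CPM (log axis) by distance in µm from the outer edge of the cortical VZ, negative inside, with Poisson 95% intervals. The leftmost point takes all cells more than 50 µm inside and the rightmost all cells more than 300 µm outside. *Sox9*, *Hopx* and *Creb5* dropped across the edge, *Eomes* stayed high up to and just past it, and *Lhx2* declined slowly.

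On a scale of relative depth from the pial to the ventricular edge in 10 bins, the inner 2 bins held 45.5% of *Sox9* transcripts in the control and 38.6% in the KO. They held 39.2% and 40.1% of *Creb5*, 30.3% and 35.4% of *Eomes*, 26.8% and 23.9% of *Hopx*, and 13.6% and 16.7% of *Lhx2*, against 9.63% and 10.4% of all panel transcripts. *Sox9* and *Creb5* were thus the innermost of the 5 by this measure, and *Lhx2* the outermost. In the KO *Eomes* lay further in than *Hopx* on this scale, with its highest level in the innermost bin (11953 CPM). KO *Hopx* was highest in bin 8 from the pia (7660 CPM). In the control the intervals of their inner shares overlapped. The profile from the VZ edge differed, with *Eomes* peaking at the edge and *Hopx* further inside. The cause of this difference was not tested.

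The cortical VZ was also cut into a medial, a middle and a lateral part within each hemisphere, again after the maps had been seen. The hemispheres were divided by a straight line set from the positions of cortical cells, which is not exactly the midline. *Hopx* had 12441 CPM in the medial, 13137 in the middle and 3822 in the lateral part of the control, and 21213, 18758 and 4987 CPM in the KO. For the control the log2 ratio of medial over lateral was 1.70 (1.24 to 2.18) and for the KO 2.09 (1.95 to 2.23), with the same direction in each of the 4 hemispheres (1.94 and 1.37, 1.94 and 2.27). *Lhx2* also leaned medially, with 1.12 (0.38 to 1.88) and 0.83 (0.64 to 1.02), and *Sox9* less so, with 0.23 and 0.55. *Eomes* was lowest in the middle part, with 4880, 3093 and 6226 CPM from medial to lateral in the control and 13220, 9445 and 16291 CPM in the KO, although in hemisphere B of the KO the middle part (12545 CPM) was level with the medial part (12383 CPM). Its log2 ratio of medial over lateral was −0.35 (−0.85 to 0.15) in the control, an interval that spans 0, with −0.79 and −0.003 in the single hemispheres. In the KO it was −0.30 (−0.41 to −0.19), with −0.17 and −0.48. For *Creb5* a medial to lateral difference was not detectable at this depth (−0.07 and −0.11).

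**Figure D4:**
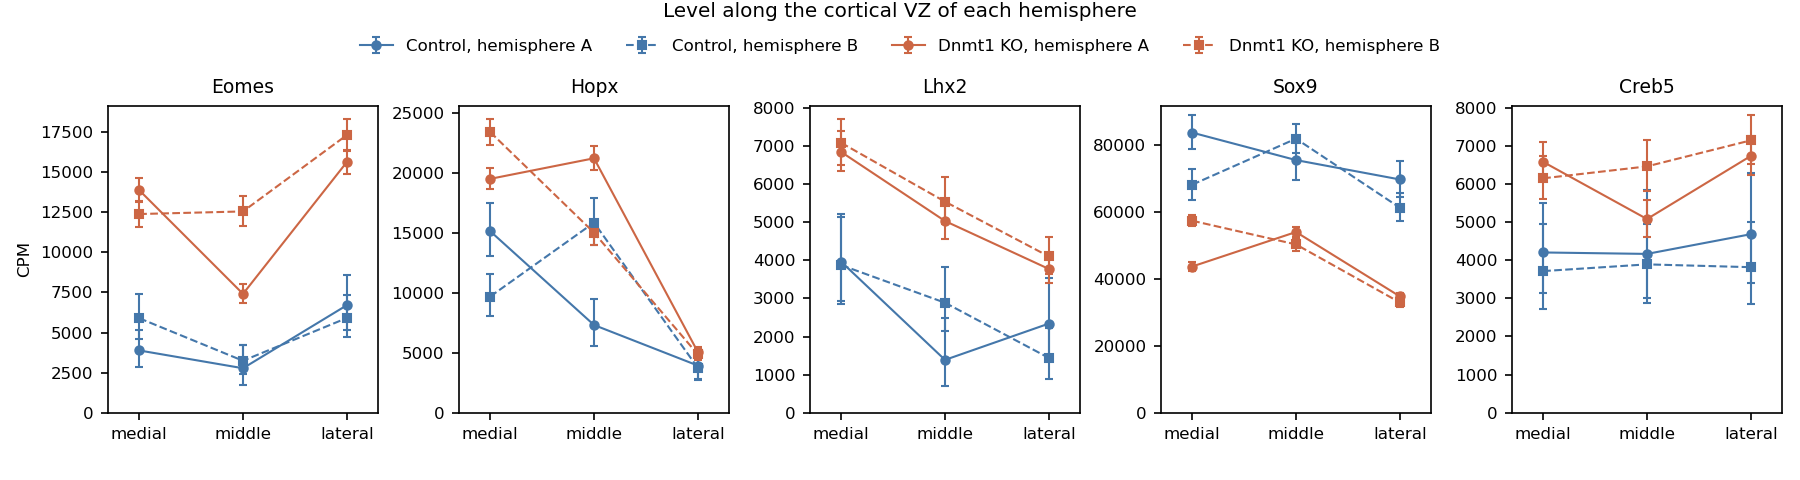
Level of each gene in CPM in the medial, middle and lateral part of the cortical VZ, for each hemisphere (A and B) of the control and the *Dnmt1* KO section, with Poisson 95% intervals. *Hopx* was lowest in the lateral part of all 4 hemispheres, and *Eomes* and *Creb5* had no such drop.

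To compare single cells at equal depth, every cell with at least 25 transcripts was thinned at random to 25. This left 1564 control and 4424 KO cells of the cortical VZ and left out 4762 and 262. At least 1 *Sox9* transcript was found in 78.7% of the control and 62.4% of the KO cells. *Hopx* was found in 20.01% and 26.6%, *Eomes* in 10.7% and 26.0%, *Creb5* in 9.14% and 15.3%, and *Lhx2* in 6.65% and 12.2%. Without thinning, in all kept cells, the shares were 82.4% and 87.8% for *Sox9* and 13.2% and 58.2% for *Eomes*, so the unthinned order of the sections for *Sox9* ran against its CPM. Cells carrying microglial markers, which should lack all 5, served as background over the whole section (479 control cells with a median of 47 transcripts before thinning and 840 KO cells with 116). Thinned in the same way, they held *Eomes* in 0.418% and 1.79%, *Hopx* in 0.209% and 0.833%, *Lhx2* in 0.418% and 1.07%, *Creb5* in 0.835% and 2.14% and *Sox9* in 13.8% and 5.36%. All cortical VZ shares lay above these.

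In the subpallial VZ, where 2723 control and 5878 KO cells had the depth, *Sox9* was found in 67.6% and 61.3% of the thinned cells. *Creb5* was found in 3.75% and 8.56%, *Lhx2* in 1.80% and 4.20%, *Hopx* in 1.29% and 1.60%, and *Eomes* in 1.07% and 3.74%. The intervals of *Eomes*, *Hopx* and *Lhx2* in the control and of *Hopx* in the KO overlapped those of the cells with microglial markers, so these 4 shares are not set apart from background. The other shares lay above this background, which was taken over the whole section. Thinned cells with *Csf1r* in this zone (80 in the control and 56 in the KO) held *Sox9* in 58.75% and 46.4% and *Creb5* in 1.25% and 10.7%. In the KO they held *Lhx2* and *Eomes* in 3.57% each.

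Most VZ cells held few of the 5 genes at this depth. In the cortical VZ 51.7% of the thinned control cells and 41.6% of the KO cells held exactly 1 member, 28.6% and 31.9% held 2, and 14.5% and 14.6% held none. The share with 3 was 4.86% and 10.4%, and with 4 it was 0.448% and 1.24%. All 5 were found together in 0 of 1564 control cells, which allows a share of up to 0.236%, and in 8 of 4424 KO cells, 0.181%. In the subpallial VZ 64.3% and 57.3% of the cells held 1 member and 5.40% and 9.71% held 2.

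Co-expression of each pair was measured as the log2 odds ratio of finding both genes in 1 thinned cell, with a 95% interval from counting error (Woolf). *Hopx* and *Sox9* were found together more often than their shares over the whole zone would give, in both sections. In the control 270.0 of 313 *Hopx* cells of the cortical VZ held *Sox9*, 86.3% against 76.8% of the cells without *Hopx*, a log2 odds ratio of 0.92 (0.42 to 1.42). In the KO these shares were 69.6% and 59.9%, a log2 odds ratio of 0.62 (0.41 to 0.82). This was the only one of the 10 pairs of members whose interval lay above 0 in either section. The odds ratios in this zone, also those with *Top2a*, did not hold position within the VZ fixed. *Sox9* and *Hopx* both decreased toward the VZ edge and *Eomes* did not. The part of position in the odds ratios was not tested.

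*Eomes* tended away from *Hopx* and *Sox9*. In the KO 244 cells held both *Eomes* and *Hopx* where 305.4 would be expected from the shares of each, a log2 odds ratio of −0.56 (−0.79 to −0.33). *Sox9* was found in 54.5% of the KO *Eomes* cells and in 65.2% of the others, −0.65 (−0.84 to −0.45). In the control the same pairs were at −0.21 (−0.81 to 0.39), with 30 cells against 33.4 expected, and at −0.14 (−0.69 to 0.42), both not distinguishable from 0 with 167 *Eomes* cells. *Eomes* and *Lhx2* were at −1.31 (−2.62 to 0.01) in the control, on 5 double-positive cells, and at 0.27 (−0.02 to 0.55) in the KO. The control value turned to 0.35 without thinning, so no direction is read from it. The remaining 6 pairs had intervals that span 0 in both sections. Several of them moved with the setting. *Sox9* with *Creb5* in the KO went from −0.06 to 0.88 without thinning and 0.46 with at least 2 transcripts of each gene, and *Hopx* with *Lhx2* in the KO from 0.14 to 0.50 and −1.5. With at least 2 transcripts *Hopx* with *Creb5* was at 1.82 in the control and −1.27 in the KO, and in the control *Hopx* with *Lhx2* was at 2.41, *Sox9* with *Creb5* at 2.45 and *Lhx2* with *Sox9* at 1.86. Neither an association nor a lack of one is read for these pairs.

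As a background, each member was paired with *Cldn5*, an endothelial gene, and *Csf1r*, a microglial gene. In the cortical VZ these log2 odds ratios ran from −0.66 to 0.68 in the control and from −1.37 to 0.08 in the KO. None had an interval above 0, and 2 of the 10 in the KO had one below 0 (*Sox9* and *Creb5* with *Cldn5*). A negative value of the size seen for *Eomes* was therefore also met between genes of different cell types. Most background pairs spanned 0 all the same, so genes of different cell types were mostly not separated within single cells of this zone. *Sox9* with *Csf1r* was found in 22 cells against 22.8 expected in the control and in 21 against 20.6 in the KO. Thinning to a fixed total ties abundant genes to each other negatively, which bears most on *Sox9* and *Top2a*. With unthinned cells pooled over strata of depth, *Hopx* with *Sox9* was at 0.93 in the control and 1.89 in the KO, *Eomes* with *Hopx* at −0.19 and −0.45, and *Eomes* with *Sox9* at −0.35 and −0.73. Counting only cells with at least 2 transcripts of each gene lowered *Hopx* with *Sox9* to 0.40 in the control and 0.30 in the KO. It moved *Eomes* with *Hopx* to −1.16 in the KO, and *Eomes* with *Sox9* to −0.61 in the control and −0.38 in the KO. In the subpallial VZ of the KO, *Eomes* and *Hopx* were found together in 12 cells against 3.52 expected, 1.97 (1.08 to 2.87). The background pair of *Hopx* and *Csf1r* was also above 0 there, at 1.83 (0.13 to 3.54) on 3 cells, and the share of *Hopx* was not set apart from background, so no co-expression is read from it. *Eomes* with *Sox9* was at −1.10 (−1.50 to −0.71) in that zone, *Eomes* with *Creb5* at 0.85 (0.29 to 1.41) and *Sox9* with *Creb5* at 0.29 (0.01 to 0.57). Without thinning these 4 pairs were at 2.62, −1.13, 1.08 and 1.15 in the KO, and *Hopx* with *Sox9*, at 0.27 and 0.02 when thinned, was at 1.18 in the control and 1.08 in the KO. Both background pairs of *Sox9* were below 0 as well in thinned KO cells, at −0.87 with *Cldn5* and −0.88 with *Csf1r*. In the subpallial VZ *Eomes* and *Hopx* were concentrated in the strip next to the cortex.

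Cells with *Eomes* but not *Hopx* and cells with *Hopx* but not *Eomes* differed in *Sstr2* in both sections and in further genes in the KO. There were 137 of the first and 283 of the second kind in the control and 905 and 932 in the KO. In the control *Sstr2* was found in 36.5% (28.4 to 45.1) of *Eomes* cells and 15.9% (11.8 to 20.7) of *Hopx* cells, and in the KO in 39.0% (35.8 to 42.3) and 18.1% (15.7 to 20.8). *Unc5d* was found in 4.38% and 0.707% in the control and in 9.50% and 1.82% in the KO. *Sox9* went the other way, 77.4% and 87.3% in the control, where the intervals overlapped, and 52.2% and 71.2% in the KO. Control intervals of *Unc5d* overlapped as well, on 6 and 2 cells. Cells with neither gene held *Sox9* in 76.8% in the control, level with the *Eomes* cells, and in 62.8% in the KO. *Sstr2* was found in 21.5% and 25.3% of them and *Unc5d* in 3.32% and 6.79%. *Aldoc* went the same way as *Sox9*, with 42.3% and 47.3% in the control, where the intervals overlapped, and 39.0% (35.8 to 42.3) and 46.2% (43.01 to 49.5) in the KO. The cells with both genes (30 and 244) held *Sstr2* in 33.3% and 32.4%, nearer to the *Eomes* cells, and *Sox9* in 76.7% and 63.1%. *Unc5d* was found in 5 of the 244 KO cells, 2.05%, nearer to the *Hopx* cells. In the control it was found in 0 of the 30 cells, with an interval up to 11.6% that covers the shares of both kinds. Merged or overlapping cells in the 10 µm section would also be counted as holding both. Position within the VZ was not held fixed between these kinds of cells. From more than 50 µm inside the edge to the last 25 µm inside, *Sstr2* rose from 7263 to 34749.5 CPM in the control. In the KO it rose from 9455 to 29393 CPM, and *Unc5d* rose from 532 to 3424 CPM in the control and from 835 to 8093 CPM in the KO. The part of position was not tested.

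Overlap with *Top2a* was broad. *Top2a* was found in 64.5% of all thinned cells of the cortical VZ in the control and in 77.6% in the KO. Over the whole section it was found in 19.0% and 29.0% of the cells with microglial markers. Among *Eomes* cells it was found in 63.5% of the control and 74.2% of the KO cells, against 64.6% and 78.8% of cells without *Eomes*. The log2 odds ratio was −0.07 in the control, with an interval that spans 0, and −0.37 (−0.60 to −0.15) in the KO. It became −0.01 in the KO without thinning, so no lower share of *Top2a* in *Eomes* cells is read from it. Without thinning *Sox9* with *Top2a* was at 0.93 in the control and 1.09 in the KO and *Creb5* with *Top2a* at 0.86 and 1.10, above the thinned values that follow. *Sox9* cells held *Top2a* more often than the rest, 66.2% against 58.3% in the control, 0.49 (0.13 to 0.85), and 80.01% against 73.5% in the KO, 0.53 (0.32 to 0.73). *Creb5* cells held it in 70.6% against 63.9%, 0.44 (−0.10 to 0.98), and in 81.2% against 76.9%, 0.37 (0.07 to 0.67). *Hopx* cells held it in 62.9% against 64.9%, −0.12 (−0.49 to 0.25), and in 79.7% against 76.8%, 0.24 (0.01 to 0.48), and *Lhx2* cells in 64.4% against 64.5% and in 76.7% against 77.7%. Control *Hopx* with *Top2a* was at 0.22 without thinning and at −0.44 with at least 2 transcripts, so no direction is read from it.

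**Figure D5:**
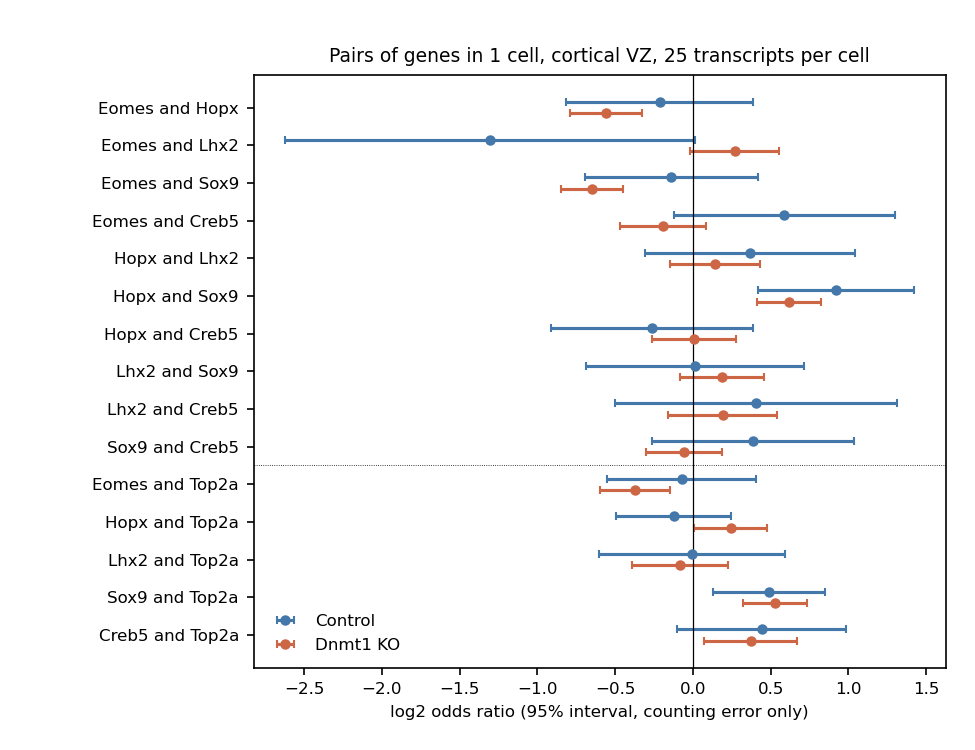
Log2 odds ratio of finding both genes of a pair in 1 thinned cell of the cortical VZ, with 95% intervals from counting error, for the 10 pairs of members (above the dotted line) and for each member with *Top2a* (below it), in the control and the *Dnmt1* KO section. *Hopx* with *Sox9* and *Sox9* with *Top2a* lay above 0 in both sections, and *Creb5* and *Hopx* with *Top2a* above 0 in the KO section. *Eomes* with *Hopx*, with *Sox9* and with *Top2a* lay below 0 in the KO section.

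In the subpallial VZ *Sox9* cells held *Top2a* in 49.3% against 54.2% of the rest in the control, −0.29 (−0.52 to −0.05), and in 68.1% against 72.9% in the KO, −0.33 (−0.50 to −0.17). Without thinning, added after the data had been seen, these values were −0.13 and −0.01, so no lower share is read from them. *Lhx2* cells, whose control share was not set apart from background, held it more often, 73.5% against 50.5% in the control, 1.44 (0.52 to 2.36), and 76.5% against 69.6% in the KO, 0.51 (0.07 to 0.94). *Creb5* cells held it in 67.6% against 50.2% in the control, 1.05, and in 72.4% against 69.7% in the KO, 0.19 with an interval that spans 0. Without thinning *Lhx2* was at 1.48 and 1.59 and *Creb5* at 1.18 and 1.14. The 94 *Hopx* cells of the KO, also not set apart from background in number, held it in 53.2% against 70.2%, −1.05 (−1.64 to −0.46).

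Outside the VZ the members differed in where their remaining transcripts lay. The cortex outside the VZ held 47.9% of all *Lhx2* transcripts in the control and 46.9% in the KO. There *Lhx2* stood at 712 CPM (642 to 788) and 1378 CPM (1338 to 1419), against 91.7 and 159 CPM in the subpallium outside the VZ, where 25 and 10 blank barcodes were at or above it. Cortical cells outside the VZ were assigned to a class where markers of that class dominated. Those with projection neuron markers (*Tbr1*, *Fezf2*, *Slc17a7*, *Nr4a2*, *Ntsr1*) held 592 and 1231 CPM of *Lhx2*. Those of no class held 1017 and 3169 CPM.

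*Eomes* was lower over the whole of each zone outside the VZ than inside it, although it stayed high just past the VZ edge. The cortex had 439.7 CPM (385 to 500.2) in the control and 968 CPM (935 to 1003) in the KO, and the subpallium 315 and 321 CPM. In the tissue around the brain 34 blank barcodes in the control and 15 in the KO were at or above it. *Hopx* was at 190.3 and 241 CPM in the cortex, where 6 and 4 blank barcodes were at or above it, and at 136 and 128 CPM in the subpallium, where 12 and 13 were. Averaged over either zone its level was not set apart from false decoding, although in the first 25 µm outside the VZ edge it was above the highest blank barcode averaged over that zone.

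Of the members, only *Sox9* was above every blank barcode in all zones of both sections. The subpallium outside the VZ held 21.8% and 25.1% of its transcripts, at 5635 and 4121 CPM, and the cortex outside the VZ 4.33% and 5.42%, at 1926 and 1603 CPM. In the cortex, cells with oligodendrocyte precursor markers stood out with 27039 and 25796 CPM, against 914 and 899.7 CPM in cells with projection neuron markers. In the subpallium, cells with radial glia and astroglia markers held 28864 and 23291 CPM and cells with oligodendrocyte precursor markers 25746 and 22792 CPM. Cells with GABAergic or striatal neuron markers there held 4414 and 3325 CPM, against 8076 and 2438 CPM in cells with microglial markers and 7178 and 5285 CPM in cells with endothelial markers, so no transcription of *Sox9* in these neurons is read from it. *Creb5* was also above its neighbours in cortical cells with oligodendrocyte precursor markers, with 2631 and 2264 CPM against 113 and 222 CPM in cells with projection neuron markers.

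The sections were cut from whole heads, so the tissue around the brain can hold skull, skin and meninges. This tissue held 27.8% of all panel transcripts in the control and 22.1% in the KO. *Creb5* had 47.1% of its transcripts there in the control, more than in both VZ zones together, and 31.9% in the KO, at 1222 CPM (1138 to 1309.9) and 1311 CPM (1270 to 1353). Of these, 70.2% and 79.5% belonged to cells with mesenchymal markers such as *Dcn* and *Osr1*, which made up 53.4% and 68.5% of the kept cells there and held *Creb5* at 1368 and 1405 CPM, little above the whole tissue. *Sox9* had 17.8% and 15.1% of its transcripts around the brain, below the share of the panel, at 6446 and 4874 CPM. Cells with at least 2 *Sox9* transcripts, 838 in the control and 2602 in the KO, held more *Col9a2*, a cartilage collagen, than the other cells of that tissue, by a log2 ratio of 2.95 (2.67 to 3.22) and 3.004 (2.88 to 3.12). *Hapln1*, a link protein of cartilage matrix, was higher in them by 3.08 and 2.32. These partner genes were chosen after their values had been seen.

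Around the brain *Hopx* was at 171 CPM in the control, with 4 cells of at least 2 transcripts, and at 481 CPM (457 to 507) in the KO, with 155 such cells. In the map of *Hopx* a thin strip at the upper edge of the KO section was high, and no such strip was seen in the control. The 155 cells held more *Wnt7b* (3.48), *Barx2* (3.43) and *Pou3f1* (2.67, all log2 ratios to the other cells of that tissue), genes that were likewise chosen after their values had been seen.

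Likeness of pattern was measured over bins of 100 µm, 1105 in the control and 1281 in the KO, as Pearson's r of log CPM. It is given as a description, since the bins share a section and its depth. The genes most like *Eomes* were *Aldoc* (0.43 and 0.572), *Sstr2* (0.413 and 0.655) and *Lhx2* (0.396 and 0.597). Those most like *Hopx* were *Aldoc* (0.513 and 0.536), *Eomes* (0.388 and 0.479) and *Mfge8* (0.366 and 0.437). *Lhx2* was most like *Fezf2* (0.512 and 0.575), *Aldoc* (0.447 and 0.595) and *Ntng2* (0.434 and 0.609), and *Sox9* most like *Aldoc* (0.532 and 0.606), *Ddr1* (0.526 and 0.597) and *Chd7* (0.484 and 0.572). *Creb5* was most like *Ccdc80* (0.591 and 0.620), *Mfge8* (0.552 and 0.683) and *Iqgap2* (0.493 and 0.663).

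Finally the cortical VZ of the KO was compared with that of the control, in which run and genotype cannot be told apart. The paper describes both sections as coming from comparable anatomical planes. A remaining difference in rostrocaudal level cannot be told apart from genotype either. *Eomes* had a log2 ratio of 1.49 (1.30 to 1.68), at percentile 97.2 of 250 genes, those with a mean level not below the panel median. *Lhx2* had 0.97 (0.72 to 1.24), *Creb5* 0.65 (0.44 to 0.87) and *Hopx* 0.57 (0.43 to 0.71), while *Sox9* had −0.71 (−0.77 to −0.66) and *Top2a* 0.54. Per cell volume, a scale that includes the difference in depth, *Sox9* turned to 1.57. The panel genes had a median of −0.04 and 5th to 95th percentiles from −1.52 to 1.25. Some other lineage markers differed in the same zone, with *Dlx1* at 1.33 (on 11 control transcripts, at the level of blank barcodes), *Unc5d* at 1.22, *Olig2* at −0.66 and *Olig1* at −1.58. Of the genes that outlined the VZ, *Aldoc* was at −0.03, *Fgfr3* at −0.02, *Ednrb* at −0.11 and *Mfge8* at −0.14, near the panel median, and *Aldh1l1* at 0.50. The part of all these genes in the members' differences was not tested. *Eomes* was the 1 member of 5 beyond 1, where 8.4% of the 250 genes lay above 1 and 14.4% below −1. Between single hemispheres control *Eomes* ranged from 4476 to 4857 CPM and KO *Eomes* from 12577 to 14122 CPM, without overlap. *Sox9* ranged from 71414 to 77226 CPM and from 43580 to 47044 CPM, also without overlap, but both hemispheres of a section share its run.

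In the subpallial VZ the differences had the same directions. *Eomes* had a log2 ratio of 1.98 (1.53 to 2.45), *Lhx2* 1.34 (0.94 to 1.75), *Creb5* 0.88 (0.64 to 1.12), *Hopx* 0.56 (0.12 to 1.02) and *Sox9* −0.40 (−0.45 to −0.35). For *Eomes* and *Hopx* these ratios rest on the strip next to the cortex, since beyond it both were at the level of blank barcodes in the control and near it in the KO. Here 2 members were above 1, where 11.6% of the 250 genes lay above 1 and 15.2% below −1. In the cortex outside the VZ *Eomes* had 1.14 (0.90 to 1.38) and *Lhx2* 0.95 (0.76 to 1.15). In the tissue around the brain *Hopx* had 1.497, *Eomes* 1.37 (0.64 to 2.16), *Lhx2* 0.92, *Creb5* 0.10 and *Sox9* −0.40, where the panel median was 0.33. *Eomes* and *Lhx2* lay at the level of blank barcodes there, with 34 and 20 of them at or above in the control. Control *Hopx* had 4 blank barcodes at or above it, so its ratio there is no exact value. *Hopx* had 0.34 (−0.04 to 0.74) in the cortex and −0.08 (−0.44 to 0.29) in the subpallium outside the VZ, while *Sox9* was lower in the KO in all 5 zones by CPM, with −0.27 and −0.45 in these last zones. In the subpallium outside the VZ *Eomes* had 0.03 (−0.20 to 0.27), a difference not detectable at this depth. Control *Eomes* had 1 blank barcode at or above it in that zone. The share of cells that the minimum kept differed between the sections in the same zones (36.0% and 96.4% in the cortical VZ), and with a minimum of 50 transcripts *Eomes* in the cortical VZ was at 2.43 and *Lhx2* at 1.59. With KO counts thinned to the control median before the minimum was applied, which kept 1608 of 4686 KO cells, *Eomes* was at 1.34, *Lhx2* at 0.98, *Hopx* at 0.58, *Creb5* at 0.49 and *Sox9* at −0.65. This alternative was added after the data had been seen.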

How the data were processed

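MERFISH with the Vizgen Pan Neuro panel was run by the authors on 1 control and 1 *Dnmt1* KO section on the MERSCOPE platform, whose software decoded molecules and segmented cells. The segmentation model is not given in the sources used here. Each deposited table gives, for every segmented cell, the raw count of molecules of each gene, which the authors had not normalized. Cell positions and volumes and a list of all single molecules came with it.

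The members and lists were chosen with earlier results of these data known. Named genes are the 5 members, *Top2a*, fixed markers, a fixed list of progenitor genes, and the 3 genes most like each member over bins (the highest by the lower r of both sections). A further gene of the progenitor list is not reported here. Partner genes around the brain were chosen after seeing values.

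The software was Python 3.11.15 with pandas 2.3.3, numpy 2.4.6, scipy 1.17.1 and, for plots, matplotlib 3.10.9. Cells under 20 panel transcripts were left out. Zones were drawn on bins of 20 µm, with smoothing constants and limits set after the sections had been seen. CPM was the sum of a gene over the sum of all panel transcripts of the cells concerned. Ratios had no pseudocount, and their intervals pair opposite ends of the Poisson intervals of both sides, wider than 95%. A cell was assigned to a marker class from at least 3 transcripts of its markers. Likeness used log values with a pseudocount of 100 CPM. Scripts were tested on simulated data. Alternatives were other minimums, smaller zones, all decoded molecules, single hemispheres, cell volume and large cells left out. Thinning the KO, leaving out the subpallial strip next to the cortex and pairs in unthinned subpallial cells were added after seeing the data.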

Additional observations from a re-analysis of the deposited data

How the results depend on the processing

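The cortical over subpallial ratios (log2) kept their direction for *Eomes*, *Hopx*, *Lhx2* and *Creb5* under every alternative tried. *Sox9* in the KO, at 0.05, reversed to −0.28 with the stricter outline of the zones and to −0.051 in one hemisphere, and was 0.0046 over all decoded molecules and 0.16 in the other hemisphere. A minimum of 50 transcripts moved the control values of *Hopx* to 3.31, *Lhx2* to 1.19 and *Sox9* to 0.19. The stricter outline moved *Sox9* in the control to 0.18, and *Lhx2* and *Creb5* in the KO to 1.20 and 0.52. *Hopx* was 3.56 and 4.54 in the control hemispheres. Without the strip within 100 µm of the cortex, chosen after seeing the data, *Eomes* was at 4.90 and 5.94 and *Hopx* at 5.98 and 6.28 (control and KO), imprecise since the control levels divided by rest on 12 transcripts each and blank barcodes reach them in both sections, *Sox9* at 0.46 in the control and *Creb5* at 1.11 in the KO. The cause of these shifts was not tested.

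KO over control in the cortical VZ was higher per cell volume, which includes the difference in depth: *Eomes* 3.77, *Lhx2* 3.26, *Creb5* 2.94, *Hopx* 2.85, and *Sox9* reversed to 1.57. With a minimum of 50 transcripts *Eomes* was 2.43, *Lhx2* 1.59, *Creb5* 0.91 and *Sox9* −0.60. With no minimum *Eomes* was 1.27 and *Hopx* 0.72, and over all decoded molecules *Eomes* was 1.27 and *Creb5* 0.40. *Hopx* was 0.42 with the stricter outline. *Sox9* ran from −0.83 to −0.60 over pairings of hemispheres. Thinning the KO to the control median, chosen after seeing the data, gave *Sox9* −0.65 and *Eomes* 1.34. Of 75 alternatives for pairs in 1 cell, 0 reversed a pair whose interval excluded 0 and 20 moved beyond counting error. The 10 inner-bin shares moved in 18 of 30 and the shares outside the VZ in 5 of 10. No paired analysis was possible because each group is 1 section. Control depth limits its pairs: 30 cells held *Eomes* and *Hopx*, and 5 held *Eomes* and *Lhx2*.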
